A study of Mus musculus with 21 samples.

Results

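The 10 imprinted genes described here, matched by the gene name column of the deposited table, are 10 of the 32643 genes in it: H19, Igf2, Dlk1, Meg3, Peg3, Snrpn, Mest, Cdkn1c, Kcnq1ot1 and Peg10. All 10 had enough reads to be tested. RNA came from whole testes of 21 mice at postnatal day 10, when Sertoli cells and spermatogonia fill the tubules and germ cells begin meiosis. 9 mice lacked FXRα (FXRalpha-/-, here KO), a nuclear receptor for bile acids (gene Nr1h4), and 12 were wild type (WT), all of a mixed 129sv and C57Bl6 strain. The groups were KO vehicle (3 animals), WT vehicle (4), KO BPA (3), WT BPA (4), KO stigmasterol (3) and WT stigmasterol (4). BPA is bisphenol A, a monomer of plastics with weak estrogenic action, and stigmasterol is a plant sterol. Dose, route, duration of exposure, litter and the deleted part of Nr1h4 were not stated in the labels.

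An imprinted gene is transcribed mainly from the copy inherited from one parent, according to DNA methylation laid down in that parent's germ cells. In the male germ line the old marks are erased in the fetus and paternal ones are then set, among them those of the H19/Igf2 and Dlk1/Meg3 domains, while Peg3, Snrpn, Mest, Kcnq1ot1 and Peg10 lie in domains marked in the oocyte. Many of these genes act in fetal and early postnatal growth: Igf2 encodes a growth factor, H19 a noncoding RNA that carries a microRNA and restrains growth, Dlk1 a membrane protein that limits differentiation, and Cdkn1c a cell cycle inhibitor. Meg3 and Kcnq1ot1 are long noncoding RNAs, and Kcnq1ot1 silences its neighbours in cis. Peg3 is a zinc finger protein, Snrpn a splicing protein, Mest a hydrolase-like protein, and Peg10 a protein derived from a retrotransposon and needed for the placenta. The counts do not separate the parental copies, and in whole testis fewer cells of a type cannot be told apart from less RNA per cell.

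The 10 genes lie on 3 chromosomes of the mm10 genome. Chromosome 7 holds Peg3 (chr7:6703892-6730421), Snrpn (chr7:59974149-60140219), H19 (chr7:142575529-142578143), Igf2 (chr7:142650766-142666816), Kcnq1ot1 (chr7:143212155-143296549) and Cdkn1c (chr7:143458350-143461050). Dlk1 (chr12:109452823-109463336) and Meg3 (chr12:109541001-109571726) are neighbours on chromosome 12, and Peg10 (chr6:4747306-4760517) and Mest (chr6:30723547-30748455) lie apart on chromosome 6. Dlk1 is transcribed from the paternal copy and Meg3 from the maternal copy of one domain. The 250 bases before the start of each are printed below. This pair was chosen after its values with BPA were seen, and neither gene was called for BPA by the main test described below. The windows are those of RefSeq on GRCm38.p6, plus strand, 5′ to 3′, at chr12:109452573-109452822 and chr12:109540746-109540995. Each CG, the dinucleotide that carries methylation, is in capitals.
Dlk1: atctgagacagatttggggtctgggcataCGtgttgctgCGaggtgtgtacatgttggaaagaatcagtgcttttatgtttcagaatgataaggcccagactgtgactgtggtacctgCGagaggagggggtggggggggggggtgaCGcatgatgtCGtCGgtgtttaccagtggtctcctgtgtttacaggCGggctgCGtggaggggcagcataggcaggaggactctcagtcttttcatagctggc
Meg3: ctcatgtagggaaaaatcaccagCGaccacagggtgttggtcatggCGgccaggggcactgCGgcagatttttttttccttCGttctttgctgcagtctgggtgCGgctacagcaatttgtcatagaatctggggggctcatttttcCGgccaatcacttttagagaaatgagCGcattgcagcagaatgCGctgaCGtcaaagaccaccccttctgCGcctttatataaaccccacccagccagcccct
The Dlk1 window held 8 CG and the Meg3 window 10, against a median of 6 over 32851 windows of the same length. The Meg3 window held the letters of a TATA box (TATATAA, from base 27 before the start, in 3.04% of all windows on either strand) and of a cyclic AMP response element (TGACGTCA, from base 57, in 1.55% of all windows). The Dlk1 window held neither of them. The nuclear receptor half-site AGGTCA, in 14% of all windows on either strand, was in neither printed window. A second annotated Meg3 start has its window at chr12:109545148-109545397, which held AGGTCA and 0 CG. These are matches of letters, not measured binding.

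The libraries held 35459523 to 61498855 counted reads, 20254 genes were tested, and no member had fewer than 589 reads in any library. Levels below are counts-per-million (CPM), and log2 fold changes, SE and adjusted p are from edgeR's quasi-likelihood test with Benjamini-Hochberg adjustment over all tested genes, two-sided, called at 0.05. Nr1h4 itself was low, at 0.172 to 0.492 CPM in the KO and 0.241 to 0.868 CPM in the WT libraries, so the genotypes overlapped. The testis markers Amh and Sycp1 were at 131 to 635 CPM and 71.1 to 323 CPM. Some libraries carried RNA of other tissues. Cdh16, an epididymal marker, reached 10 CPM in 6 of 9 KO and 3 of 12 WT libraries. Alb or Fabp4, of liver and fat, did so in 2 of 9 KO and 2 of 12 WT libraries, all of them from BPA animals. Alb was at 18.9 CPM in KO T25, 58.56 CPM in WT T75 and 577.88 CPM in WT T61, and Fabp4 was at 35.79 CPM in KO T117. Averaged over treatments, 7 of 10 Sertoli markers were called lower in KO testes, in a comparison with 13.9% of all genes called. Called higher were 7 of 7 tested epididymal markers (median log2 fold change 1.08) and 4 of 5 fat markers (median 2.52). None of the 15 meiotic markers was called, with 14 positive.

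The members spanned a wide range of abundance. On the authors' normalized signal per kb of gene length, the mean level over the 21 libraries was highest for Meg3 at 16201.5 ± 4056.7, then H19 at 10876.5 ± 4065.2, Dlk1 at 8061.8 ± 1733.5 and Igf2 at 7351.2 ± 1468.4 (SD, n = 21 each). Peg3 was at 2754.1 ± 420.9, Mest at 1881.0 ± 538.6 and Peg10 at 1204.2 ± 312.6 on the same scale. Snrpn at 579.3 ± 59.2 and Cdkn1c at 535.7 ± 81.2 followed, and Kcnq1ot1 was lowest at 33.9 ± 3.5. The libraries' ranges overlapped between each of these neighbours in the order except 3: Igf2 (lowest 5042.3) and Peg3 (highest 3520.9), Peg10 (lowest 755.1) and Snrpn (highest 709.3), and Cdkn1c (lowest 383.1) and Kcnq1ot1 (highest 40.3). The order rests on the lengths: the authors' length of Meg3 was 0.797 kb, against 18.1 kb of exons in GENCODE, and by exonic length (an alternative added after the data were seen) H19 came first, Meg3 sixth and Kcnq1ot1 last.

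Some of the members share transcribed bases with other genes, and reads of the 2 strands were not separated by the library kit. Copg2 on the opposite strand overlaps 23.1% of the exonic bases of Mest and the antisense gene Gm44732 overlaps 30.7% of those of Cdkn1c. Gm49394 on the same strand covers 62.8% of the exonic bases of Igf2. Gm44732 and Gm49394 have no row in the deposited table, so no counts are listed under their names. Kcnq1ot1 is antisense to Kcnq1, whose exons cover 121 of its bases.

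**Figure D1:**
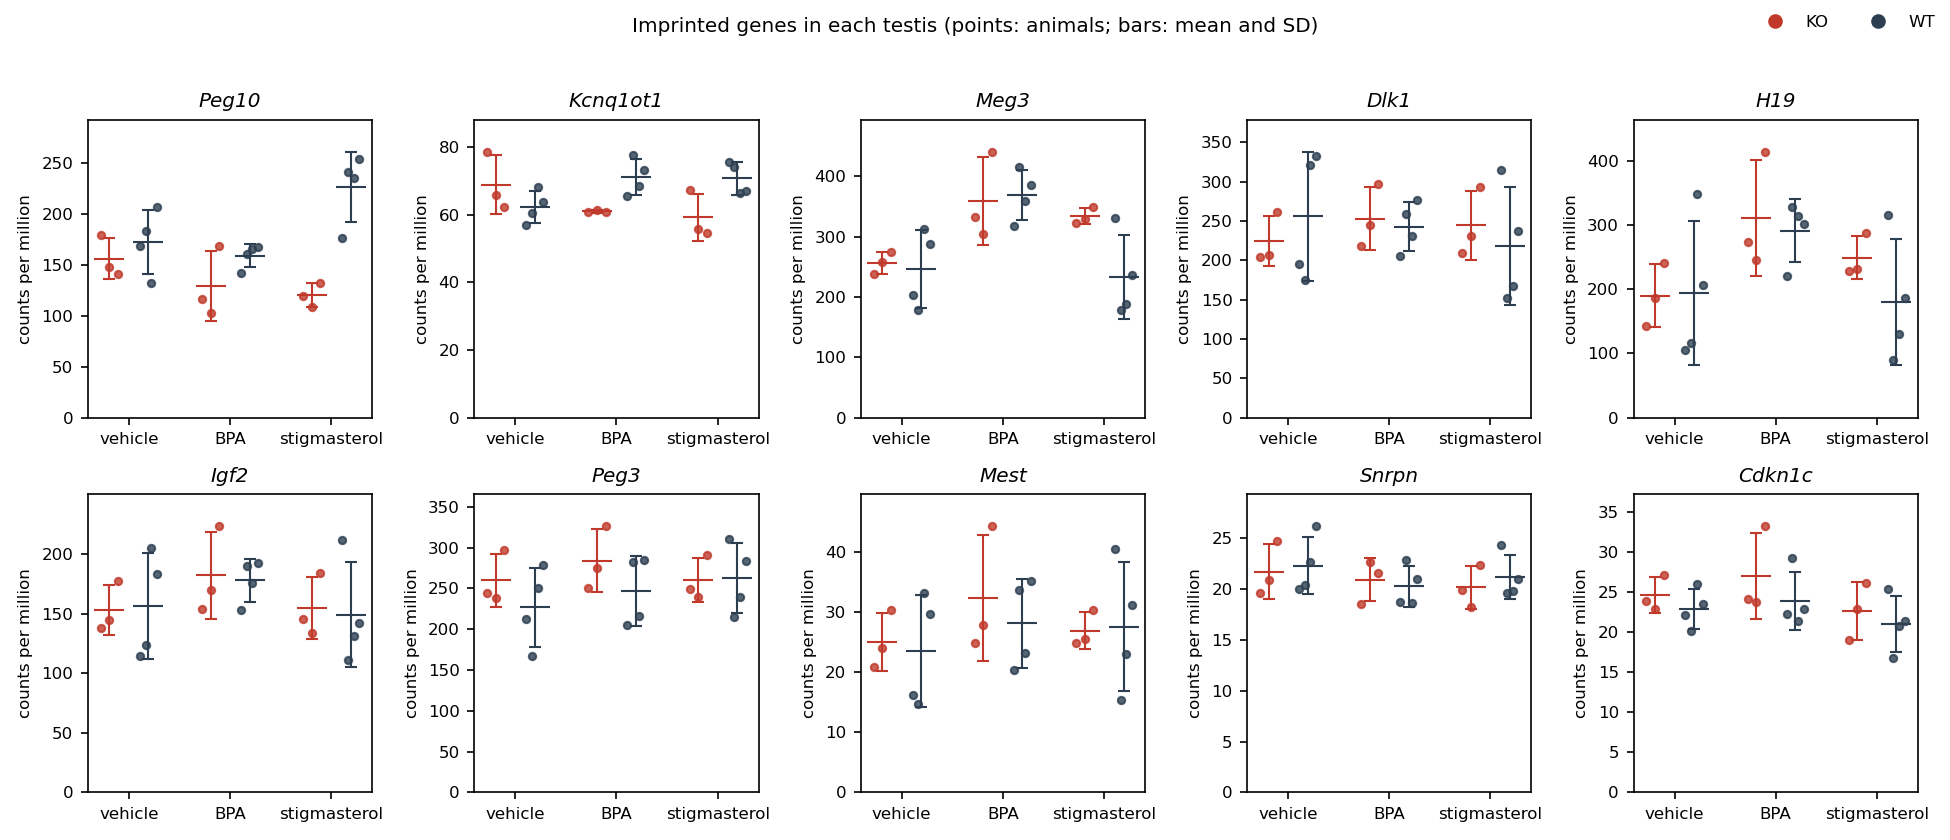
Level of each imprinted gene (CPM, linear axis from 0) in every testis by treatment, KO left of WT; points are animals and bars the mean and SD. Peg10 in KO stigmasterol testes (109 to 132 CPM) lies below all WT stigmasterol testes (176 to 254 CPM), while Meg3 in BPA testes lies above the vehicle testes of the same genotype.

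Loss of FXRα went with a lower level of 1 of the 10 genes, Peg10, which was called in animals given stigmasterol and over the 3 treatments. Peg10 was at 119.5, 109 and 132 CPM in KO stigmasterol testes, against 176, 241, 235 and 254 CPM in WT stigmasterol testes. No KO stigmasterol animal reached the lowest WT stigmasterol animal. The level fell by 0.91 on the log2 scale in KO (SE 0.166, adjusted p = 0.00319 by edgeR), to 0.531 times that of WT. Peg10 was the only member called in this comparison, in which 7.21% of all tested genes were called.

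With vehicle the genotypes overlapped. Peg10 was at 179, 148 and 141 CPM in KO vehicle testes, against 168, 183, 132 and 207 CPM in WT vehicle testes. The log2 fold change was -0.15 (SE 0.163, adjusted p = 0.638 by edgeR). None of the 10 genes was called in vehicle testes, where 2.92% of all genes were called. None had an unadjusted p under 0.05, against 20.9% of all genes. DESeq2 and limma-voom called 0 as well.

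In animals given BPA, Peg10 was at 116.5, 103 and 168 CPM in KO testes, against 142, 161, 165 and 168 CPM in WT testes. KO animals T25 and T83 were below every WT animal and T117 was level with the highest. The log2 fold change was -0.30 (SE 0.163, adjusted p = 0.705 by edgeR). None of the members was called in this comparison, with 0.859% of all genes called. One member, Kcnq1ot1, had an unadjusted p under 0.05 there, beside 8.16% of all genes, and DESeq2 and limma-voom called 0.

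Averaged over the 3 treatments, Peg10 fell by 0.45 on the log2 scale in KO testes (SE 0.0945, adjusted p = 0.00396 by edgeR). It was the 1 member of 10 called, beside 13.9% of all genes called in that comparison. The members' median log2 fold change was 0.05, against 0.01 over all genes. The effect of stigmasterol on Peg10 was 0.77 lower in KO than in WT on the log2 scale (SE 0.23), but this difference between effects was not called (adjusted p = 0.307), and 0.00987% of all genes were called for it. Within genotypes, the Peg10 log2 fold change for stigmasterol over vehicle was -0.37 in KO (SE 0.174, adjusted p = 1.0) and 0.39 in WT (SE 0.15, adjusted p = 0.517), neither of them called.

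Epididymal RNA moved with genotype in the same comparison: the summed level of the 8 epididymal markers was 138.7 to 524.7 CPM in KO stigmasterol testes and 81.8 to 117.6 CPM in WT stigmasterol testes, and 5 of 7 tested markers were called higher; 1 of the 8, Lcn5, was at 0 in every animal of both groups. The KO stigmasterol animal with the lowest Peg10, T15, had Cdh16 at 0.949 CPM, whereas T10 and T93 had 86.0 and 203 CPM. When every library whose Cdh16 reached 10 CPM was left out, 1 KO animal per treatment remained, with stigmasterol T15. The Peg10 log2 fold change was then -1.07 with stigmasterol and -0.58 over treatments, and neither was called. The stigmasterol value rests on T15, the KO animal with the lowest Peg10, so its size cannot be compared with that from all libraries.

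The neighbours of Peg10 on chromosome 6 gave different values. Sgce, which shares a bidirectional promoter region and paternal expression with Peg10, differed by 0.03 on the log2 scale between KO and WT stigmasterol testes (SE 0.162, adjusted p = 0.944). Ppp1r9a, a neuronal actin-binding protein gene of the same cluster, fell by 0.40 in KO (SE 0.108, adjusted p = 0.0294). Asb4, a ubiquitin ligase adaptor gene there, was not called with stigmasterol (log2 fold change -1.04, SE 0.342, adjusted p = 0.0731) and fell by 0.68 in KO over the 3 treatments (SE 0.193, adjusted p = 0.0254).

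**Figure D2:**
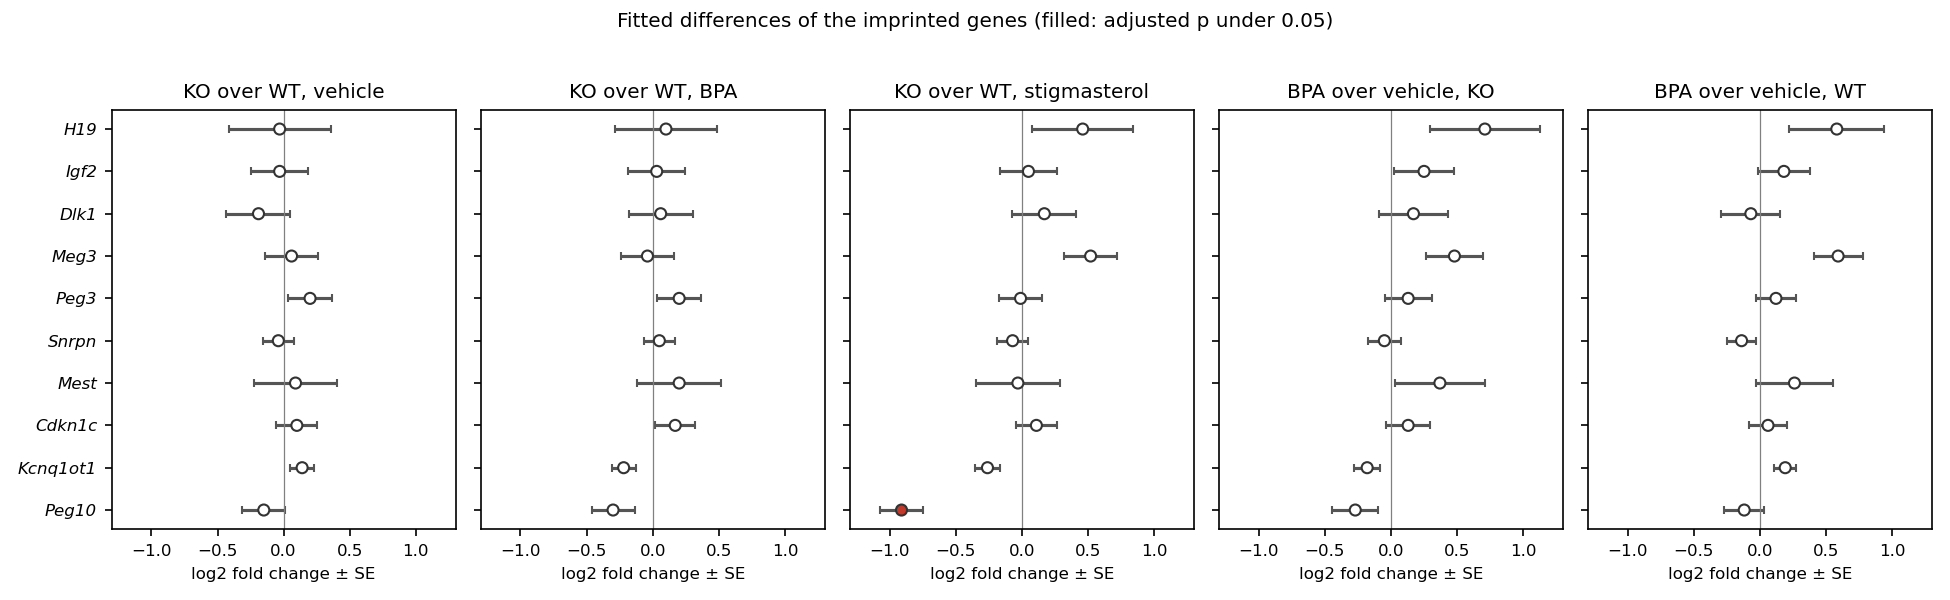
Fitted log2 fold change of each imprinted gene with its SE, KO over WT in each treatment and BPA over vehicle in each genotype; filled points have an adjusted p under 0.05 by edgeR. Only Peg10 with stigmasterol (-0.91) is filled, and the Meg3 and H19 points lie right of 0 in both BPA panels.

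Kcnq1ot1, which silences the Kcnq1 domain, kept its level within narrow limits, between 54.6 and 78.6 CPM in all 21 testes. In BPA animals it was at 60.8, 61.3 and 60.7 CPM in KO testes, against 65.4, 77.6, 68.4 and 73.2 CPM in WT testes, without overlap. In stigmasterol animals it was at 67.3, 55.8 and 54.6 CPM in KO testes, against 75.5, 74.1, 66.3 and 66.9 CPM in WT testes, where 1 KO animal lay within the WT range. In vehicle animals it was at 78.6, 65.7 and 62.1 CPM in KO testes, against 57.0, 60.5, 68.1 and 63.7 CPM in WT testes. The KO values were thus the lower ones in treated animals and the higher ones on average with vehicle, but no comparison was called by edgeR. The log2 fold changes of KO over WT were 0.14 with vehicle (SE 0.0906, adjusted p = 0.377), -0.22 with BPA (SE 0.0912, adjusted p = 0.481) and -0.26 with stigmasterol (SE 0.0912, adjusted p = 0.0966). DESeq2 called the stigmasterol one (adjusted p = 0.0464), as did edgeR without KO stigmasterol animal T10 (adjusted p = 0.0383). Kcnq1, the gene that Kcnq1ot1 is antisense to, was 10.9 times as high in KO as in WT stigmasterol testes (log2 fold change 3.44, SE 0.765, adjusted p = 0.0113), where the epididymal markers were high too. Without the libraries whose Cdh16 reached 10 CPM, the Kcnq1 log2 fold change was 0.21 (adjusted p = 0.934).

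The other 8 members showed no difference between genotypes that edgeR called. Over the 3 treatments, their log2 fold changes ran from -0.02 for Snrpn to 0.18 for Meg3 and H19. Peg3 averaged 260.2 ± 32.4, 284 ± 38.6 and 260.3 ± 27.4 CPM in KO testes with vehicle, BPA and stigmasterol, and 227 ± 48.3, 247 ± 42.4 and 263 ± 43.1 CPM in WT testes (SD, n = 3 per KO and 4 per WT group). Cdkn1c averaged 24.8 ± 3.90 CPM in all KO testes and 22.6 ± 3.19 CPM in all WT testes (SD, n = 9 and 12). Snrpn was at 18.2 to 24.7 CPM in KO and 18.6 to 26.2 CPM in WT testes. Mest ran from 20.9 to 44.3 CPM in KO and from 14.8 to 40.4 CPM in WT testes. Igf2 averaged 163 ± 28.6 CPM in KO and 161 ± 36.2 CPM in WT testes. With stigmasterol, Meg3 was at 323, 329 and 349 CPM in KO testes, against 331, 179, 188 and 236 CPM in WT testes. All WT animals but T78 lay below all KO animals. The log2 fold change of 0.52 (SE 0.199) was not called (adjusted p = 0.129), and without T78 it was 0.73 (adjusted p = 0.0222).

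Meg3 was higher in every BPA animal than in any vehicle animal of the same genotype, but the edgeR test did not call it. Meg3 was at 332, 304 and 441 CPM in KO BPA testes, against 238, 257 and 275 CPM in KO vehicle testes. In WT animals it was at 317, 415, 358 and 385 CPM with BPA, against 204, 178, 313 and 288 CPM with vehicle. In neither genotype did the groups overlap. The BPA animals with the highest Meg3, KO T117 and WT T75, were among those with fat or liver RNA (Fabp4 at 35.79 CPM and Alb at 58.56 CPM). The others with such RNA were not the highest of their groups: WT T61 (Alb at 577.88 CPM) had Meg3 at 358 CPM and KO T25 (Alb at 18.9 CPM) at 332 CPM. The log2 fold change was 0.48 in KO (SE 0.215, adjusted p = 0.896 by edgeR) and 0.59 in WT (SE 0.186, adjusted p = 0.113 by edgeR), and the KO minus WT difference was -0.10 (SE 0.284, adjusted p = 0.937). The meiotic prophase markers were mostly negative for BPA over vehicle: 0 of 15 were positive in KO animals (median log2 fold change -0.64) and 2 of 15 in WT animals (median -0.27), none of them called. Their summed level was 661.0 to 1414.4 CPM in KO BPA and 1086.7 to 2051.2 CPM in KO vehicle testes, and 797.2 to 1113.2 CPM in WT BPA and 481.9 to 1572.6 CPM in WT vehicle testes. With the score of these markers in the fit, the Meg3 log2 fold change was 0.25 in KO (adjusted p = 1.0) and 0.57 in WT (adjusted p = 0.0237). Other marker lists shifted with BPA too, with none called. Peritubular and mesenchymal markers were positive for 8 of 8 in KO (median 0.29) and 6 of 8 in WT (0.26), endothelial ones for 5 of 5 in both. Sertoli markers were positive for 7 of 10 in KO (0.07) and 0 of 10 in WT (-0.34). Liver markers were positive for 6 of 6 in KO (1.16) and in WT (5.99).

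No member was called for BPA in KO animals, where 0.0148% of all genes were called. None was called in WT animals, where 0% of all genes were called. Other tests placed Meg3 in WT on the other side of the threshold. DESeq2 called it (adjusted p = 0.0456), with 4.85% of all genes called. The authors' deposited table gives it a log2 fold change of 0.58 and an adjusted p of 0.03, and 2.96% of the genes in that table have an adjusted p under 0.05. Without WT vehicle animal T79, which had the highest vehicle level, edgeR called it too (adjusted p = 0.0354), and limma-voom did not (adjusted p = 0.113). At an unadjusted p under 0.05 there was 1 member of 10 in KO (Meg3), beside 4.31% of all genes. In WT there were 2 of 10 (Meg3 and Kcnq1ot1), near the 18.8% of all genes.

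Dlk1, the protein-coding partner of Meg3, gave no such difference. It was at 218, 244 and 297 CPM in KO BPA testes, against 204, 207 and 261 CPM in KO vehicle testes. In WT testes it was at 205, 258, 231 and 276 CPM with BPA, against 195, 174, 321 and 332 CPM with vehicle. The groups overlapped in both genotypes. The log2 fold changes were 0.17 in KO (SE 0.258) and -0.07 in WT (SE 0.224), with adjusted p values of 0.924 and 0.896. Rian, a further maternal noncoding RNA of this domain, had 0.21 in WT (SE 0.185, adjusted p = 0.588).

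The ratio of Meg3 to Dlk1 in the same library, chosen after the values were seen, was 1.52, 1.24 and 1.48 in KO BPA testes, against 1.17, 1.24 and 1.05 in KO vehicle testes. It was 1.54, 1.61, 1.55 and 1.40 in WT BPA testes, against 1.05, 1.02, 0.975 and 0.867 in WT vehicle testes. The groups met at 1.24 in KO and were apart in WT. With stigmasterol the ratio was 1.55, 1.43 and 1.19 in KO testes, with 1 animal below all KO BPA animals, and 0.996 to 1.17 in WT testes, below all WT BPA animals.

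H19, the maternally expressed partner of Igf2, differed by as much as Meg3 on average but varied more between animals. It was at 273, 246 and 414 CPM in KO BPA testes, against 143, 186 and 241 CPM in KO vehicle testes, without overlap. In WT testes it was at 220.3, 328, 315 and 302 CPM with BPA, against 105, 116, 349 and 207 CPM with vehicle, and the vehicle animal T79 was above all BPA animals. The log2 fold changes were 0.71 in KO (SE 0.414, adjusted p = 0.896) and 0.58 in WT (SE 0.358, adjusted p = 0.397). With the meiotic score in the fit they were 0.28 in KO and 0.58 in WT, neither called. KO T117 and WT T75, with fat or liver RNA, again had the highest H19 of their BPA groups. WT T61 and KO T25, with liver RNA too, had H19 at 315 and 273 CPM. Igf2 was at 154 to 223 CPM in KO BPA and 138 to 177 CPM in KO vehicle testes, and at 153 to 192 CPM in WT BPA and 115 to 205 CPM in WT vehicle testes.

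**Figure D3:**
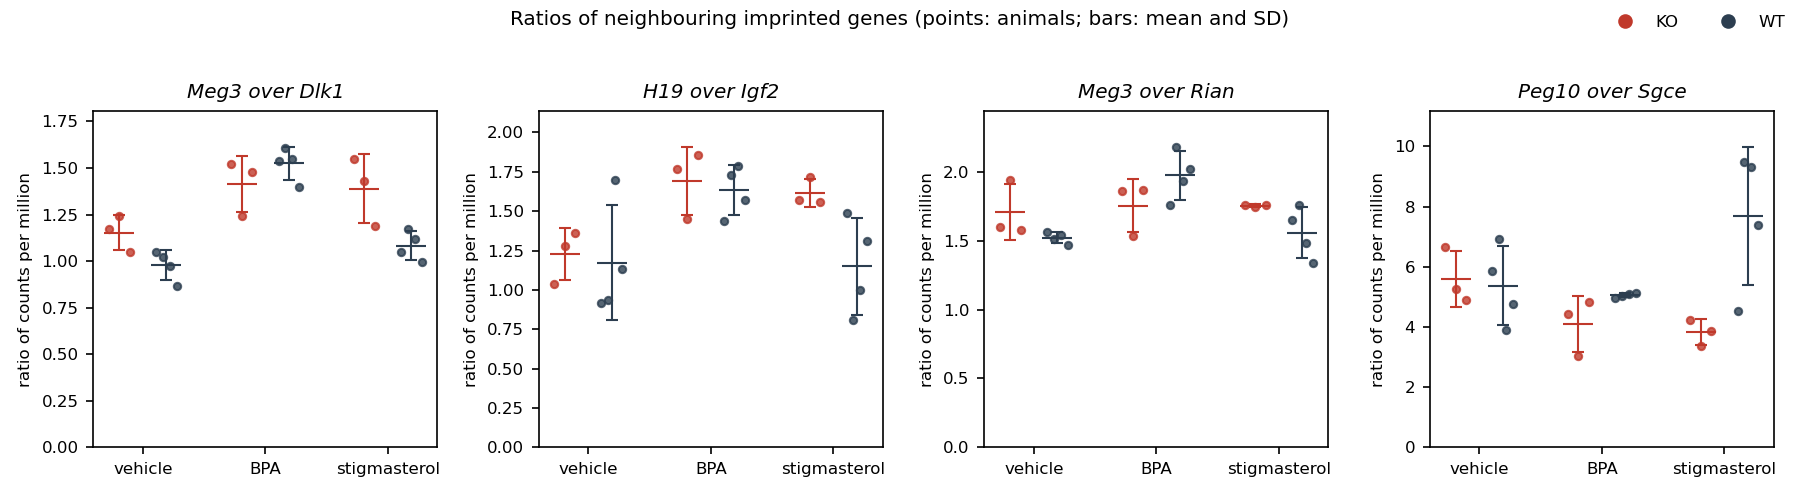
Ratio of the CPM of 2 genes of one imprinted domain in each testis by treatment, KO left of WT, linear axes from 0; points are animals and bars the mean and SD. The ratio of Meg3 to Dlk1 lies at 1.40 to 1.61 in WT BPA testes and at 0.867 to 1.05 in WT vehicle testes.

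Stigmasterol changed none of the members within a genotype by edgeR, in a comparison with 0% of all genes called in KO and 0.00494% in WT. At an unadjusted p under 0.05 there were 2 members in each genotype, beside 3.85% of all genes in KO and 8.26% in WT. They were Peg10 and Kcnq1ot1 in both, with log2 fold changes of -0.37 and -0.22 in KO and 0.39 and 0.18 in WT. DESeq2 and limma-voom called 0 members in either genotype. For the difference of the BPA effect between genotypes, 0 members were called beside 0.0148% of all genes. There 1 member had an unadjusted p under 0.05 (Kcnq1ot1), beside 8.83% of all genes, and DESeq2 and limma-voom called 0. For the difference of the stigmasterol effect, 0 members were called beside 0.00987% of all genes. There 2 members had an unadjusted p under 0.05 (Kcnq1ot1 and Peg10), beside 9.16% of all genes, and DESeq2 and limma-voom called 0.

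H19, Igf2, Dlk1, Meg3, Peg3, Snrpn, Mest and Cdkn1c varied together from animal to animal. After each group's mean was subtracted, the correlation of log2 CPM over the 21 libraries ran from 0.63 to 0.94 between their 28 pairs, with a median of 0.84. The 17 pairs with Peg10 or Kcnq1ot1 ran from -0.24 to 0.30. These are descriptions, and the values of a pair share their library. Genes outside the list correlated as strongly with these members, such as Nav1 with Dlk1 (0.97). The correlation among all genes was not counted, so the pattern cannot be read as particular to imprinted genes.

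The same 8 genes were lower in testes with more RNA of meiotic cells. Against a score of 15 meiotic prophase markers, such as Sycp1 and Dmc1, the within-group deviations of Dlk1 gave Pearson's r = -0.89 and Spearman's rho = -0.90 over 21 libraries (permutation p = 0.00018 and 5e-05 within groups, adjusted p = 0.001 and 0.0005 over the 10 genes). Without the libraries farthest from the median score, WT stigmasterol T98 and T78, r for Dlk1 was -0.85. For Igf2 r was -0.85 (permutation p = 0.00044, rho -0.85), for Mest -0.83 (p = 0.00043, rho -0.79) and for H19 -0.81 (p = 0.0015, rho -0.86). For Snrpn it was -0.79, for Meg3 -0.78, for Peg3 -0.75 and for Cdkn1c -0.70, each with an adjusted permutation p of at most 0.0049. Leaving out the 2 libraries gave -0.58 for Cdkn1c and -0.69 to -0.79 for the other 6 besides Dlk1. Peg10 gave r = 0.03 and rho = -0.03 (permutation p = 0.92 and 0.93), and Kcnq1ot1 gave r = 0.06 and rho = 0.03 (permutation p = 0.79 and 0.90). CPM are shares of one library, and the part of this in the relation was not tested. The share of all genes with such a relation was not counted, so the relation cannot be read as particular to these members.

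**Figure D4:**
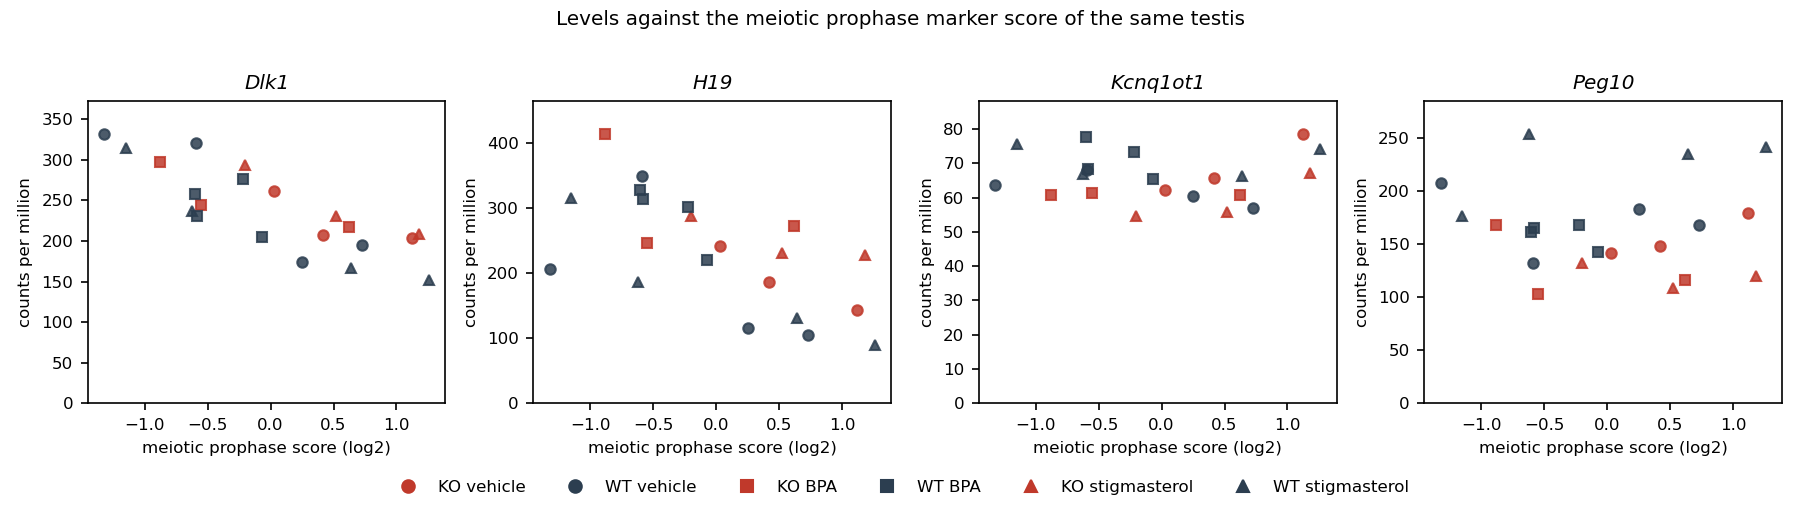
CPM of 4 imprinted genes (linear axis from 0) against the meiotic prophase marker score of the same testis (mean log2 deviation of 15 markers); each point is 1 animal, colour gives the genotype and shape the treatment. Dlk1 and H19 are lower where the score is higher (within-group r -0.89 and -0.81), whereas Kcnq1ot1 and Peg10 show no trend (0.06 and 0.03).

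With the meiotic score as a covariate in the fit, more members differed between genotypes. The score moved with genotype: over the 3 treatments 14 of 15 of its markers were positive in KO (median 0.37), none called. Members that fell with the score were shifted up in KO by this fit, such as Dlk1 over treatments (0.01 without the score) and H19 (0.18). Whether their calls in this fit are genotype differences apart from the score was not tested. In stigmasterol testes 4 of 10 members were called, beside 14.4% of all genes: Peg10 at -0.91 (adjusted p = 0.00204), and H19 at 0.89 (SE 0.241, adjusted p = 0.0198), Meg3 at 0.69 (SE 0.129, adjusted p = 0.00214) and Dlk1 at 0.40 (SE 0.115, adjusted p = 0.0274), higher in KO. Over the 3 treatments 7 of 10 were called, beside 18.8% of all genes. Peg10 was at -0.45 (adjusted p = 0.00427) and the other 6 were positive: H19 0.51, Mest 0.34, Meg3 0.33, Peg3 0.23, Dlk1 0.21 and Cdkn1c 0.21, with adjusted p values of 0.00697 to 0.045. Igf2 at 0.18 (adjusted p = 0.0867), Snrpn at 0.05 and Kcnq1ot1 at -0.12 were not called. For BPA over vehicle in KO animals, 0 members were called, beside 0.0148% of all genes, with Meg3 at 0.25 (SE 0.141) and H19 at 0.28 (SE 0.26), against 0.48 and 0.71 without the score. In WT animals Meg3 alone was called, beside 5.9% of all genes, at 0.57 (SE 0.117, adjusted p = 0.0237), and H19 was at 0.58 (SE 0.218, adjusted p = 0.105).

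The genes with the most similar pattern over the 21 libraries were named by the highest Pearson r of log2 CPM after group means were subtracted, as a description. Igf2 itself was among the 3 genes most like H19 (r = 0.94), after Lbh (0.96) and Lrrfip1 (0.95). For Meg3 they were the imprinted gene Nnat (0.96), Dner (0.95) and Wisp1 (0.94), and for Mest Wisp1 (0.97), Dner (0.97) and the imprinted gene Plagl1 (0.96). Dlk1 was closest to Nav1, Sorcs2 and Trpm5 (0.97 each), Igf2 to Elmsan1, Tspan9 and Filip1l (0.96 each), and Peg3 to Egflam (0.96), Gria3 (0.95) and Zcchc24 (0.95). Snrpn was closest to Itga9 (0.93), Mill2 (0.92) and Trim2 (0.92), and Cdkn1c to Smtn (0.91), Hoxd10 (0.91) and Serinc2 (0.90). Peg10 stood with Epas1 (0.92), a hypoxia-inducible transcription factor, Rgp1 (0.92) and Optn (0.91), and Kcnq1ot1 with Tmem245 (0.89), Pkib (0.87) and Pcm1 (0.87).

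Other imprinted genes of the same domains were called in both directions. Over the 3 treatments, 2 of 33 tested genes were higher in KO and 4 lower, beside 13.9% of all genes called. Usp29, a ubiquitin protease gene beside Peg3, rose by 0.75 on the log2 scale (SE 0.142, adjusted p = 0.00181), and by 1.07 in vehicle testes (SE 0.246, adjusted p = 0.0242). Kcnq1, a potassium channel gene, rose by 1.38 (SE 0.428, adjusted p = 0.0387). Kcnq1 was at 4.79, 0.640 and 12.6 CPM in KO stigmasterol animals T10, T15 and T93, against 0.405 to 0.693 CPM in WT stigmasterol testes, so T15, the one with low Cdh16, lay in the WT range. Without T93 the stigmasterol log2 fold change was 2.27 and not called (adjusted p = 0.106), the value over treatments was 0.98 (adjusted p = 0.119), and without the libraries whose Cdh16 reached 10 CPM it was -0.10 over treatments (adjusted p = 0.912). Besides Ppp1r9a (-0.28) and Asb4, those lower were Snhg14, the host transcript beside Snrpn (-0.16, adjusted p = 0.0303), and Igf2os, antisense to Igf2 (-0.39, adjusted p = 0.043). Of 25 tested genes of other imprinted domains, 3 were higher and 2 lower. Rasgrf1, a guanine nucleotide exchange factor gene, rose by 0.74 (SE 0.164, adjusted p = 0.00579), Slc22a3, an organic cation transporter gene, by 1.77 and Cobl, an actin nucleator gene, by 0.28, in KO, while Phactr2 fell by 0.32 (SE 0.0679, adjusted p = 0.00413) and Nnat, a proteolipid gene, by 0.55. Slc22a3 was at 2.09, 0.155 and 9.30 CPM in KO stigmasterol animals T10, T15 and T93, against 0.182 to 0.471 CPM in WT stigmasterol testes, so T15 lay below all WT animals. Its value over treatments was 1.17 without T93 (adjusted p = 0.129) and -0.31 without the libraries whose Cdh16 reached 10 CPM (adjusted p = 0.772). Rasgrf1 was 0.26 without those libraries (adjusted p = 0.571). Of the 11 calls over treatments in these lists, those of Usp29, Ppp1r9a, Rasgrf1 and Phactr2 held in 21 of 21 fits that left out 1 library, a check of these genes added after their values were seen. Asb4 held in 20 (lost without KO stigmasterol T93, adjusted p = 0.0512), Snhg14 in 19 (lost without WT BPA T61 or WT stigmasterol T119), Cobl and Slc22a3 in 13, Igf2os in 8, Kcnq1 in 7 and Nnat in 5 of the 21. When the libraries whose Cdh16 reached 10 CPM were left out, Phactr2 alone of the 11 was called (-0.47, adjusted p = 0.00786). The call of Usp29 with vehicle held in 17 of the 21 (lost without WT vehicle T66 or T81, or KO vehicle T1 or T90), and that of Ppp1r9a with stigmasterol in 17 (lost without WT stigmasterol T119 or any KO stigmasterol animal). The lists' medians were 0.02 and 0.04, against 0.01 over all genes.

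Of 19 genes that set or keep imprints, 0 were called over the 3 treatments, beside 13.9% of all genes, and 1 with stigmasterol, beside 7.21%. Zfp57, a zinc finger protein that protects imprints after fertilization, rose by 0.64 in KO stigmasterol testes (SE 0.157, adjusted p = 0.0183; without T93 0.54, adjusted p = 0.108, and without WT stigmasterol T118 0.61, adjusted p = 0.0538), and Dnmt1, the maintenance methyltransferase, had 0.17 there (SE 0.146, adjusted p = 0.575). Of 18 genes of the insulin-like growth factor pathway, 1 was called over treatments and with stigmasterol (13.9% and 7.21% of all genes): Igfbp2, which binds Igf2 protein, rose by 0.68 over treatments (SE 0.201, adjusted p = 0.0311) and by 1.71 in stigmasterol testes (SE 0.35, adjusted p = 0.00708). It was at 159, 70.7 and 404 CPM in KO stigmasterol animals T10, T15 and T93, against 51.5 to 72.7 CPM in WT stigmasterol testes, so the KO animal with low Cdh16 lay in the WT range. Without T93 its log2 fold change was 0.81 with stigmasterol (adjusted p = 0.0793) and 0.37 over treatments (adjusted p = 0.0732), and without the libraries whose Cdh16 reached 10 CPM 0.12 and 0.10, neither called. Over treatments the call was also lost without WT BPA T74, WT stigmasterol T119, KO vehicle T1 or KO BPA T117. Igf2r, the imprinted receptor that clears Igf2, had 0.03 over treatments (SE 0.0458, adjusted p = 0.707).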

How the data were processed

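Testis RNA libraries of 21 mice were made with a TruSeq kit and sequenced on 1 flowcell, per the labels. Per the submitters' processing notes, the tools were TopHat2 2.0.10 with Bowtie and Bowtie2 2.1.0, after CASAVA 1.8.2, on mm10, and the read counter is not stated there. The deposited table holds raw read counts per gene, a normalized signal (the counts divided by a size factor per library), that signal per kb, and the authors' log2 fold changes with p-values for treatment over vehicle. The main test was edgeR 4.0.16 under R 4.3.3 (TMM, filterByExpr with minimum count 10 and minimum total 15, 1 mean per group, quasi-likelihood test, Benjamini-Hochberg adjustment per comparison), checked on simulated data. SE is taken as |log2 fold change| over the root of the F statistic. DESeq2 1.42.0 and limma-voom (limma 3.58.1), other normalization and filters, fewer libraries and a meiotic score covariate (prior count 2) were alternatives. 10 comparisons were made, 100000 permutations within groups for each relation with the score. The biological coefficient of variation was 19.2%. Chi-square per degree of freedom was 9.2 to 75.8 over 27 replicate pairs, a check on the replicates that entered no test. A level of 3 counts equals 0.049 to 0.085 CPM. Each animal is 1 replicate. The tests treat animals as independent, which could not be checked because the labels do not give litters. The members and gene lists were chosen with earlier results of these data known. All members are named; other list genes are named where called, at most 6 per list and comparison, and similar genes as the 3 with the highest r at a mean of 1 CPM or more. A few further genes (Sgce, Rian, Dnmt1 and Igf2r) are named for being neighbours or partners, after their values were seen. Promoter windows were matched by symbol in RefSeq (GRCm38.p6) for 7 members: Igf2, Dlk1, Meg3, Peg3, Snrpn, Mest and Kcnq1ot1.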

Additional observations from a re-analysis of the deposited data

Results flagged for a closer look

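For 3 results every KO animal moved one way from the vehicle mean of its genotype and every WT animal the other way. The share of all genes with this pattern was not counted, so the pattern cannot be read as particular to these members. For Peg10 and stigmasterol the effect in KO minus that in WT was -0.77 on the log2 scale (adjusted p = 0.307 by edgeR's interaction term). For Kcnq1ot1 it was -0.40 with stigmasterol (adjusted p = 0.358) and -0.37 with BPA (adjusted p = 0.536). None of the interactions was called. In the 30 groups of 4 WT animals, 10 genes in 3 groups, no animal stood apart from the others by Dixon's test at its critical value of 0.829, a test that by chance marks about 1 in 20 groups.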

How the results depend on the processing

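The Peg10 difference kept its direction under every alternative, and both its calls held in 21 of 21 fits that left out 1 library: the log2 fold change ran from -1.02 to -0.85 with stigmasterol and from -0.54 to -0.41 over treatments. Both calls were lost when libraries whose Cdh16 reached 10 CPM were left out (-1.07 and -0.58; 0 members called in each), where fewer animals remain. The number of members called for KO over WT with stigmasterol, 1, became 2 with DESeq2, 4 with the meiotic covariate and 1 to 2 on leaving out 1 library (2 without WT stigmasterol T78 or KO stigmasterol T10). Over treatments it became 7 with the covariate and 1 to 2 on leaving out 1 library (2 without KO vehicle T1, Kcnq1ot1 being added). For BPA in WT it became 1 with DESeq2 and with the covariate, and 0 to 1 on leaving out 1 library. The cause of these changes in count was not tested. The uncalled log2 fold change of Dlk1 over treatments, 0.01, turned to -0.11 without the Cdh16 libraries and ran from -0.05 to 0.09 on leaving out 1 library; with stigmasterol it ran from 0.0 to 0.40. That of Mest over treatments, 0.09, turned to -0.07 without the Cdh16 libraries and ran from -0.02 to 0.17. The counts of the other 7 comparisons stayed at 0 members under all alternatives. No paired analysis was possible because the labels give each animal a number of its own. Every member had at least 589 reads in each library.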

Other observations

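The ratios of neighbouring imprinted genes were tested after their values were seen, with 15 exact permutation tests (5 ratios, each for genotype, BPA and stigmasterol; two-sided, animals relabelled within strata). Meg3 over Dlk1 was higher with BPA than with vehicle within genotypes by 0.47 on the log2 scale (exact p = 0.00143, the smallest that 1400 relabellings can give; adjusted p = 0.0214). All 4 WT BPA animals were above all WT vehicle animals. Leaving out each of the 14 libraries gave 0.44 to 0.51 with an exact p of 0.00143 to 0.00286. Fewer relabellings exist in those fits, so these values are at or near the smallest possible. H19 over Igf2 was higher with BPA by 0.49 (exact p = 0.00714, adjusted p = 0.0536), which does not pass the adjustment. With stigmasterol the ratio of H19 to Igf2 averaged 1.62 ± 0.091 in KO (n = 3) and 1.15 ± 0.307 in WT testes (n = 4), and that of Meg3 to Dlk1 1.39 ± 0.181 in KO and 1.09 ± 0.0778 in WT testes. For stigmasterol over vehicle within genotypes the differences were 0.19 for H19 over Igf2 (exact p = 0.266, adjusted p = 0.399) and 0.21 for Meg3 over Dlk1 (exact p = 0.0214, adjusted p = 0.0916). Whether the BPA and stigmasterol effects on a ratio differ was not tested. With BPA, H19 over Igf2 averaged 1.69 ± 0.214 in KO BPA and 1.23 ± 0.171 in KO vehicle testes (SD, n = 3 each), and 1.63 ± 0.158 in WT BPA and 1.17 ± 0.366 in WT vehicle testes (SD, n = 4 each). Peg10 over Sgce was lower in KO than in WT within treatments by -0.40 (exact p = 0.031, adjusted p = 0.0916). It averaged 3.83 ± 0.435 in KO stigmasterol testes (n = 3) and 7.68 ± 2.30 in WT stigmasterol testes (n = 4). Meg3 over Rian was higher with BPA by 0.21 (exact p = 0.03, adjusted p = 0.0916). No ratio test other than that of Meg3 over Dlk1 with BPA passed the adjustment. The ratios were chosen from the values of these same animals, and the adjustment over 15 tests does not cover that choice.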
